A study of Mus musculus with 2 samples.

Results

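Complex I, the NADH:ubiquinone oxidoreductase of the mitochondrial inner membrane, is encoded in the nucleus by genes whose symbols begin with Nduf and in the mitochondrial genome by the mt-Nd genes. The genes described here are all rows of the deposited expression table whose symbol begins with Nduf, which were 44 of 31920 rows. By their known roles, 7 encode core subunits, 29 encode accessory subunits and 6 encode assembly factors named Ndufaf. The other 2, Ndufa4 and Ndufa4l2, are related by name: Ndufa4 is now assigned to complex IV, and Ndufa4l2 is its paralog. Rows that RefSeq lists as older names of Ndufaf7 and Ndufaf8 are outside the rule and are described beside the assembly factors.

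The libraries are of polyadenylated RNA from the cardiac left ventricle of 129-SvEv mice, male and 10 weeks of age, from a study of the heart disease caused by loss of LAMP2, a lysosomal membrane protein needed for autophagy. There was 1 library of genotype wildtype and 1 labelled Lamp2 knockout, and the sources used here do not say whether a library holds 1 animal or a pool, or which part of Lamp2 the allele removes. With 1 library per group there was no test of the genotypes and no p-value; the 95% intervals given with ratios are exact conditional binomial intervals from the reads, so counting error is all they cover. Gene rows summed to 8410593 reads for the wildtype and 8773820 reads for the second library, and levels are given as reads per 1000000 such reads (RPM). Lamp2 itself stood at 118 RPM in the wildtype and 112 RPM in the other library, a ratio of 0.955 (0.873 to 1.04), so its level does not check the label, and the second library is called knockout-labelled. Markers of cardiomyocytes summed to 66432 RPM in the wildtype and 64933 RPM in the knockout-labelled library, with 4 of 10 markers above and 6 below a log2 ratio of 0. All 7 measured macrophage markers were higher, with summed levels of 154 RPM against 294 RPM, and 6 of 7 fibroblast markers were lower, at 555 RPM against 491 RPM. All 6 smooth muscle and pericyte markers were lower too, at 801 RPM against 719 RPM; no marker row stood at 0. The part of these cell type markers in the results below was not tested, and in bulk tissue fewer cells of a type and less RNA per cell cannot be told apart.

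Complex I takes electrons from NADH at the tip of its peripheral arm, which stands in the matrix, passes them along iron-sulfur clusters to ubiquinone near the membrane, and couples this to proton pumping in its membrane arm. The core subunits carry the cofactors and the proton channels, and the nuclear core subunits all lie in the peripheral arm. Accessory subunits surround the core and stabilise it, while assembly factors help to build modules of the complex and leave before it is finished. In heart muscle, which depends on mitochondrial ATP, the complex is one of the main entry points of electrons into the respiratory chain.

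Transcripts of the nuclear complex I genes were abundant in both libraries. Together they took 2.03% of assigned reads in the wildtype (exact binomial 95% interval 2.02 to 2.04) and 2.47% in the knockout-labelled library (2.46 to 2.48), a ratio of 1.21 (1.21 to 1.22). Accessory subunits made up most of this, at 1.56% against 1.96%, and core subunits took 0.300% against 0.327%. The assembly factors took 0.0160% of reads in the wildtype and 0.0184% in the knockout-labelled library. The mt-Nd rows went the other way: their share was 17.95% in the wildtype and 10.2% in the knockout-labelled library, a ratio of 0.567 (0.566 to 0.569). For each read of a nuclear Nduf gene there were 8.84 reads of mt-Nd rows in the wildtype and 4.13 in the knockout-labelled library. Mitochondrial transcripts as a whole took a lower share. Reads that were not mitochondrial numbered 6183738 of 8410593 in the wildtype and 7349648 of 8773820 in the knockout-labelled library. Mitochondrial rows other than mt-Nd are not described here, so the lower share is not shown to be particular to complex I. Because each level is a share of all assigned reads, the lower mitochondrial share raises every nuclear share. Counted among reads that are not mitochondrial, the nuclear Nduf genes took 2.76% and 2.94%, a ratio of 1.07 (1.06 to 1.07). On that base the summed core reads, of which Ndufv1 gave 7457 of 25233 in the wildtype, had a ratio of 0.957 (0.941 to 0.974). Gene by gene, with the 10 most abundant other transcripts left out too, 4 of 7 core genes lay above 0 on the log2 scale, with a median of 0.063. Of all measured genes 44.0% lay above 0 on that scale. On the base without mitochondrial reads, the accessory subunits were higher at 1.10 (1.09 to 1.11), and the assembly factors had a ratio of 1.01 (0.938 to 1.09).

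**Figure D1:**
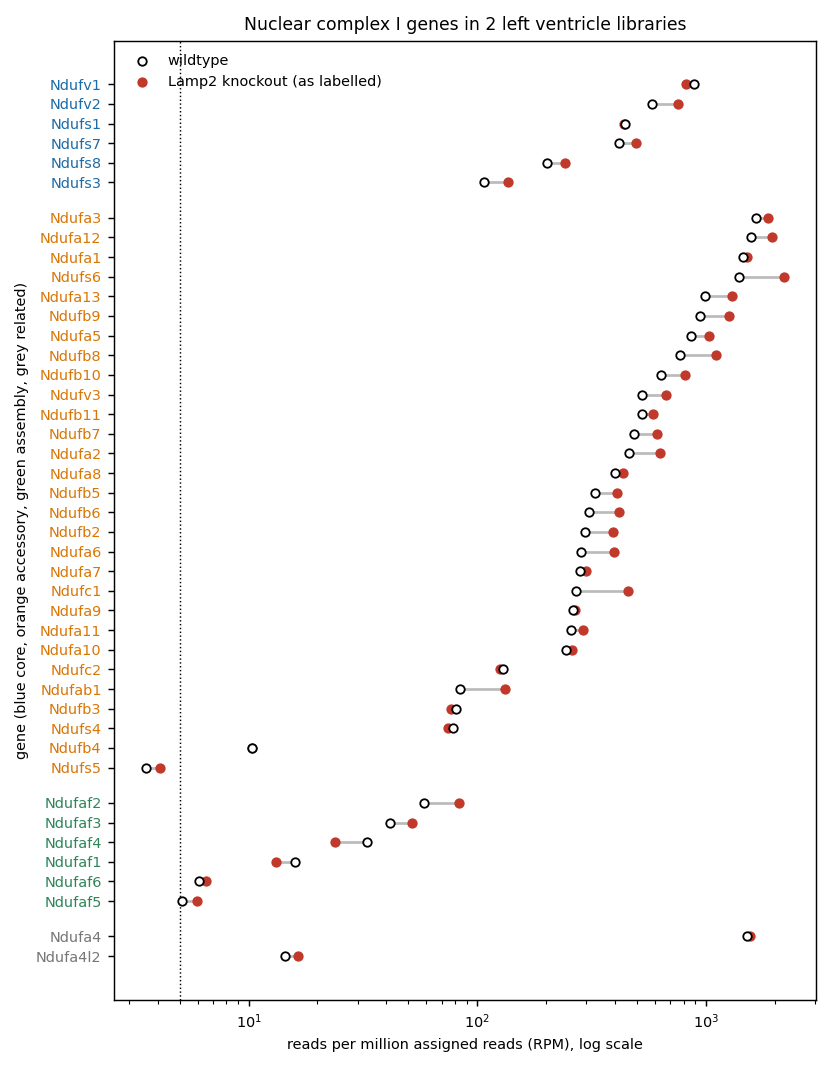
Level of 43 of the 44 rows in the wildtype library (open circles) and the knockout-labelled library (red circles), in RPM on a log axis, by role; the dotted line marks the minimum of 5 RPM. Core and most accessory subunits lie near or above 100 RPM, Ndufb4 and Ndufs5 lie far below the other subunits, and all 6 assembly factors lie below the core subunits.

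A gene counted as measured with at least 5 RPM in either library, which 43 of the 44 rows reached; the exception was Ndufs5 at 3.57 RPM in the wildtype and 4.10 RPM in the knockout-labelled library. The measured members just above that minimum were Ndufaf5, with 5.93 RPM in its higher library, and Ndufaf6 with 6.50 RPM. On the scale of log2((knockout-labelled RPM + 1)/(wildtype RPM + 1)), the median of the 43 measured members was 0.25, beside 0.11 over all 10209 measured genes. Of these members 36 lay above 0 and 28 lay above the median of all measured genes, where 61.2% of all measured genes lay above 0. No member reached a 2-fold difference in either direction, where the background was 3.35% of measured genes at least 2-fold higher and 2.37% at least 2-fold lower, 5.72% in all. After division by the median ratio, which lowers every log2 ratio by 0.12, the all-gene counts went from 342 higher and 242 lower to 252 and 311. At 1.5-fold, 3 members were higher and 0 lower, beside a background of 12.8% higher and 7.3% lower, 20.1% in all. The share of members past 1.5-fold was therefore below the background. The members were more abundant, with a wildtype median of 308 RPM beside 21.2 RPM over all measured genes. These backgrounds at 1.5-fold and 2-fold were not matched for level. The counting interval of the ratio lay above 1 for 31 members and below 1 for 2, beside a background of 35% and 16.8%. Divided by the median ratio, 27 members lay above 0, and 22 intervals lay above 1 and 10 below. With totals that leave out mitochondrial and the 10 most abundant other transcripts, which lowers log2 ratios by 0.18, these counts were 24, 19 and 14. Abundant genes have narrow intervals, and among the 1457 genes of at least 100 RPM in either library the interval lay above 1 for 62.3% and below 1 for 20.6%. The 33 members in that range had intervals above 1 in 29 cases and below 1 in 1 case, and 30 had a log2 ratio above 0, beside 71.2% of all genes of that level.

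**Figure D2:**
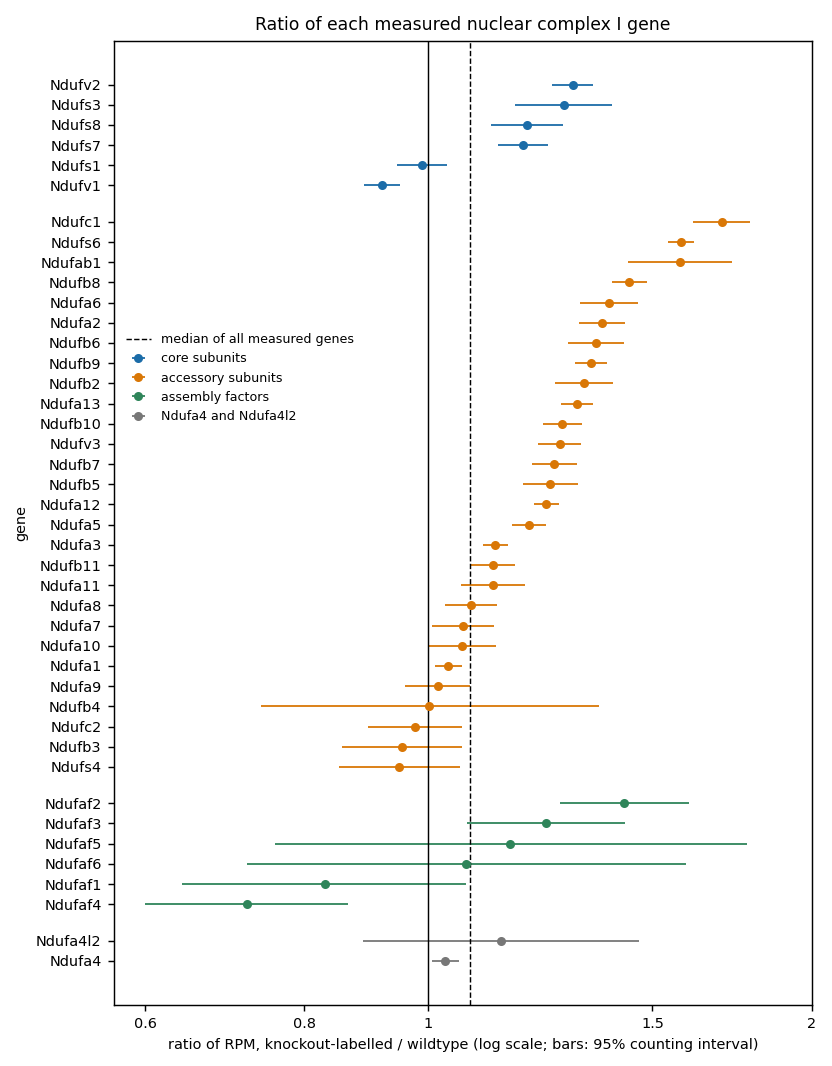
Ratio of RPM, knockout-labelled over wildtype, for 42 of the 43 measured members on a log axis, with 95% counting intervals as bars; the solid line marks a ratio of 1 and the dashed line the median of all measured genes. The ratios run from 0.721 for Ndufaf4 to 1.70 for Ndufc1, and most accessory subunits lie to the right of the dashed line.

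Among the nuclear core subunits, 5 of 7 had an interval above 1 and 1 had an interval below 1; the counts were 4 and 2 after division by the median ratio, and 2 and 3 with the reduced totals. Ndufv1 binds the FMN that accepts electrons from NADH (chromosome 19, 4007505 to 4012725 in mm10, as are all coordinates of genes here). It had the highest RPM of the core genes, without regard to length, at 887 RPM in the wildtype and 816 RPM in the knockout-labelled library. Its ratio of 0.920 (0.890 to 0.950) was the only core ratio with an interval below 1 on the deposited scale. Ndufv2, the iron-sulfur partner of Ndufv1 in the same electron input module (chromosome 17, 66078795 to 66101491), went the other way at 584 against 758 RPM, a ratio of 1.30 (1.25 to 1.35). These 2 intervals do not overlap, so the balance of the 2 transcripts differed between the libraries by more than counting error. An annotated processed pseudogene overlaps Ndufv2 on the opposite strand.

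Ndufs1, the large iron-sulfur subunit that continues the electron path from the input module, was at 444 RPM in the wildtype and 439 RPM in the knockout-labelled library, and its interval of 0.946 to 1.04 includes 1, but it lay below 1 on the other scales. Ndufs7 carries the last iron-sulfur cluster before ubiquinone and was at 416 against 494 RPM, a ratio of 1.19 (1.13 to 1.24). Ndufs8, also an iron-sulfur subunit of the ubiquinone module, was at 202 against 241 RPM, a ratio of 1.196 (1.12 to 1.28). Ndufs3, a structural subunit of the same module, had the lowest core level at 107 against 136 RPM, a ratio of 1.28 (1.17 to 1.40). The annotation lists a processed copy of Ndufs3 that is 98.6% identical over 792 bases, so its count is uncertain. The core median log2 ratio was 0.25, with a range of −0.12 to 0.38.

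Of the 28 measured accessory subunits, 25 lay above 0 on the log2 scale. Their median was 0.31, with a range of −0.07 to 0.76. Their intervals lay above 1 in 23 cases and below 1 in 0 cases, and 5 included 1; after division by the median ratio 17 lay above and 5 below, and with the reduced totals 16 and 8. All 3 members at least 1.5-fold apart were accessory subunits. Ndufc1, a small membrane arm subunit (chromosome 3, 51405479 to 51408955), was at 270 RPM in the wildtype and 458 RPM in the knockout-labelled library, a ratio of 1.70 (1.61 to 1.79). Ndufs6, a zinc-binding subunit of the electron input module that is added late in assembly (chromosome 13, 73319876 to 73328482), was at 1400 against 2210 RPM. Its ratio was 1.58 (1.54 to 1.62), and in the knockout-labelled library it had the highest RPM of all members. Ndufab1, the mitochondrial acyl carrier protein, which sits in both arms and also serves mitochondrial fatty acid synthesis (chromosome 7, 122088044 to 122101848), was at 84.4 against 133 RPM, a ratio of 1.58 (1.43 to 1.73). Ndufab1 has 2 annotated processed copies at 99.8% and 99.4% identity, and Ndufs6 has 1 at 95.8% identity over 287 bases, so reads of these genes may be split.

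The next highest accessory genes were Ndufb8 of the distal membrane arm at 773 RPM in the wildtype and 1112 RPM in the knockout-labelled library, a ratio of 1.44 (1.39 to 1.48), and Ndufa6. Ndufa6, a protein of the LYR family that holds an acyl carrier protein on the peripheral arm, was at 285 against 396 RPM, a ratio of 1.39 (1.32 to 1.46). Ndufa2, a peripheral arm subunit with a thioredoxin-like fold, was at 460 against 630 RPM, a ratio of 1.37 (1.31 to 1.43). An annotated gene overlaps Ndufb8 on the same strand and another overlaps Ndufa2 on the opposite strand, and no source used here says that strand was used in counting.

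At the other end, the 5 accessory subunits with the lowest ratios, Ndufb4 among them, had intervals that include 1. On the 3 other scales tried, those of Ndufs4, Ndufb3, Ndufc2 and Ndufa9 lay below 1. Ndufs4, a peripheral arm subunit whose loss causes the mitochondrial disease Leigh syndrome, was at 78.4 against 74.4 RPM (0.851 to 1.06). Ndufb3 and Ndufc2, subunits of the membrane arm, were at 80.7 against 77.0 RPM (0.857 to 1.06) and at 129 against 127 RPM (0.898 to 1.06). Ndufa9, which binds a nucleotide near the ubiquinone site, was at 264 RPM in the wildtype and 268 RPM in the knockout-labelled library. Ndufa1, a small membrane subunit encoded on the X chromosome, was abundant at 1454 against 1509 RPM, a ratio of 1.04 (1.01 to 1.06) that did not keep its direction when the scale was changed, with 0.957 after division by the median ratio. The most abundant accessory genes in the wildtype were Ndufa3, a small membrane arm subunit, at 1664 against 1879 RPM, a ratio of 1.13 (1.10 to 1.16), Ndufa12 of the peripheral arm at 1578 against 1954 RPM, a ratio of 1.24 (1.21 to 1.27), and Ndufa1.

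Grouped by place in the complex, the median log2 ratio was 0.26 for 16 peripheral arm genes, 0.14 for 8 measured genes of the proximal membrane arm and 0.34 for 10 genes of the distal membrane arm. The ranges overlapped widely, from −0.12 to 0.66, from −0.03 to 0.76 and from −0.07 to 0.52, so these groups did not separate. Within the peripheral arm the 9 accessory genes had a median of 0.31, beside 0.25 for the 7 core genes.

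Ndufs5 and Ndufb4 had far lower levels than the other subunits, and both have a near-identical copy. Ndufb4, a distal membrane arm subunit, was at 10.3 RPM in the wildtype and 10.4 RPM in the knockout-labelled library, from 87 and 91 reads. Ndufs5, a subunit of the proximal membrane arm, had 30 and 36 reads. The row BC002163 on chromosome 16, annotated as a processed pseudogene, had 574 and 590 reads, many more than the Ndufs5 row on chromosome 4. Reads of both rows summed to 71.8 against 71.3 RPM, a ratio of 0.994 (0.887 to 1.11). Their coding parts differ at 2 of 318 aligned bases (99.4% identity), and the stretch that holds both differences, coding bases 46 to 105 counted from the start codon of Ndufs5, is shown with the differing bases in capitals.
Ndufs5: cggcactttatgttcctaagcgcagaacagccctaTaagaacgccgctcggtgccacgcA
BC002163: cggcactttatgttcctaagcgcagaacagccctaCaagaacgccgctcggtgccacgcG
The copy of Ndufb4 named Ndufb4c is identical to the gene over all 387 coding bases and is not a row analysed here. How reads that match several places were treated is not given in the sources used here, so the levels of these genes are uncertain. In all, 8 members have an annotated processed copy with at least 95% identity over at least 100 bases, and 12 overlap an annotated gene on the opposite strand. Without these, 26 measured members had a median log2 ratio of 0.18. Overlap on the same strand, found for 5 members, was not a reason to leave a member out. Ndufb8, Ndufb9 and Ndufc2 have such an overlap and stay among the 26.

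Levels of different genes are compared per kilobase of the longest coding transcript in the GENCODE M21 annotation, and only for the 24 subunits whose longest coding transcript was at most 1.2 times as long as the other length choice, that of a RefSeq-linked transcript. Ndufa1 and Ndufa3 stood highest, at 3471 and 3231 RPM per kilobase in the wildtype and at 3601 and 3649 in the knockout-labelled library, so their order was exchanged. Ndufb9, a distal membrane arm subunit, followed at 1338 and 1796. Among the core subunits, Ndufv1 was at 534 RPM per kilobase in the wildtype and 491 in the knockout-labelled library. Ndufs1 was at 167 and 165 and Ndufs3 at 102 and 130. The median of the 4 core genes was 195 in the wildtype and 202 in the knockout-labelled library. That of the 20 accessory genes was 475 and 601, with Ndufv1 above it in the wildtype. The core genes Ndufv2, Ndufs7 and Ndufs8 were left out by the length rule, and lay above the core median with either length choice. Ndufs4, at 46.1 and 43.8, and Ndufab1, at 24.3 and 38.2, were low among the accessory genes. The 6 assembly factors had a median of 9.94 and 7.75 RPM per kilobase. No gene moved by more than 4 ranks between the libraries, and 11 of the 24 kept their rank. Ndufv1 was the gene that moved by 4, from rank 9 to rank 13. Without replicates, whether neighbours in this order differ beyond the spread between animals is unknown.

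The 6 assembly factors did not all go the same way. On the log2 scale 4 lay above 0 and 2 below, where 61.2% of all measured genes lay above 0. Ndufaf2, a paralog of Ndufa12 that binds a late assembly intermediate (chromosome 13, 108052589 to 108158625), was at 58.4 RPM in the wildtype and 83.2 RPM in the knockout-labelled library, a ratio of 1.43 (1.27 to 1.60). Ndufaf3 and Ndufaf4 work together on the ubiquinone module, and their transcripts went opposite ways. Ndufaf3 was at 41.7 against 51.6 RPM, a ratio of 1.24 (1.07 to 1.43), while Ndufaf4 (chromosome 4, 24898083 to 24905001) was at 33.1 against 23.8 RPM, a ratio of 0.721 (0.599 to 0.865). On the other scales the interval of Ndufaf3 included 1. Intervals of the remaining 3 genes included 1 on the deposited scale; that of Ndufaf1 lay below 1 on the others. Ndufaf1, a member of the complex that assembles the membrane arm around mt-Nd2, was at 15.9 against 13.2 RPM (0.642 to 1.07). Ndufaf5, which hydroxylates an arginine of Ndufs7, was at 5.11 against 5.93 RPM (0.759 to 1.78), and Ndufaf6, needed for early steps of assembly, was at 6.06 against 6.50 RPM (0.721 to 1.60). At these low levels a difference of the size seen for Ndufaf3 was not detectable. The median log2 ratio of the 6 was 0.13, with a range of −0.46 to 0.50.

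The row of the gene that RefSeq names Ndufaf8, a partner that stabilises Ndufaf5, was at 66.1 RPM in the wildtype and 103 RPM in the knockout-labelled library, a ratio of 1.55 (1.39 to 1.73). Ndufaf7, a methyltransferase of the mitochondrial matrix, is listed under an older name too and was at 19.3 against 14.6 RPM, a ratio of 0.757 (0.596 to 0.961). With both rows the 8 Ndufaf genes kept a median of 0.13, and their spread widened to an SD of 0.40 among genes, from 0.36, beside 0.19 for core and 0.23 for accessory subunits. Over all 10209 measured genes the SD was 0.51, larger than that of the Ndufaf genes. The Ndufaf genes also had lower median levels than core and accessory subunits, and the part of counting error in their spread was not tested.

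Of 14 listed symbols of assembly genes with other names, 10 were rows of the table and all 10 were measured. Other names of the absent symbols were not looked up, so their genes may be rows under another name. Their median log2 ratio was −0.05; 4 lay above 0 and 6 below. At least 1.5-fold lower were 2 of them, beside the background of 7.3%, and 0 were at least 1.5-fold higher. Tmem186 and Tmem126b, which act with Ndufaf1, Ecsit and Acad9 in membrane arm assembly, were these 2: Tmem186 was at 17.2 RPM in the wildtype and 8.78 RPM in the knockout-labelled library, a ratio of 0.509 (0.381 to 0.676), and Tmem126b at 12.6 against 7.41 RPM, a ratio of 0.588 (0.425 to 0.808). Their partners Ecsit and Acad9 had ratios of 1.02 (0.898 to 1.15) and 0.940 (0.768 to 1.15). Tmem126a, a relative of Tmem126b also on chromosome 7, which takes part in assembly around mt-Nd4, was higher at 66.7 against 99.3 RPM, a ratio of 1.49 (1.34 to 1.66). The intervals of Foxred1, Nubpl, Tmem70, Lyrm2 and Atp5sl, the other listed genes, included 1.

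The mitochondrially encoded subunits form the core of the membrane arm. All 5 measured mt-Nd rows were lower in the knockout-labelled library, where 38.8% of all measured genes had a log2 ratio below 0, and their log2 ratios ran from −1.004 to −0.66. Thus mt-Nd1, at the junction of the arms, was at 26826 RPM in the wildtype and 16966 RPM in the knockout-labelled library, a ratio of 0.632 (0.628 to 0.637). The rows mt-Nd3, with 15 and 9 reads, and mt-Nd4l, with 0 reads in both, were not measured. By counting error alone, a count of 0 allows up to 0.357 RPM in the wildtype and 0.342 RPM in the other library. The mt-Nd4l row shares its last bases with the mt-Nd4 row, which stood at 18372 and 11343 RPM. How reads were assigned is not given, so the levels of mt-Nd3 and mt-Nd4l are uncertain and the limits may not bound them. The highest log2 ratio of a measured mt-Nd row lay below the lowest of any measured nuclear member. All 5 measured mt-Nd rows were at least 1.5-fold lower, beside 0 of the 43 measured nuclear members and 7.3% of all measured genes. The mt-Nd6 row, the highest mt-Nd row in the wildtype at 49224 RPM, overlaps the end of mt-Nd5 on the opposite strand. Whether strand was used in counting is not given. Reads of opposite-strand transcripts may therefore be in this row and in the summed mt-Nd share.

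**Figure D3:**
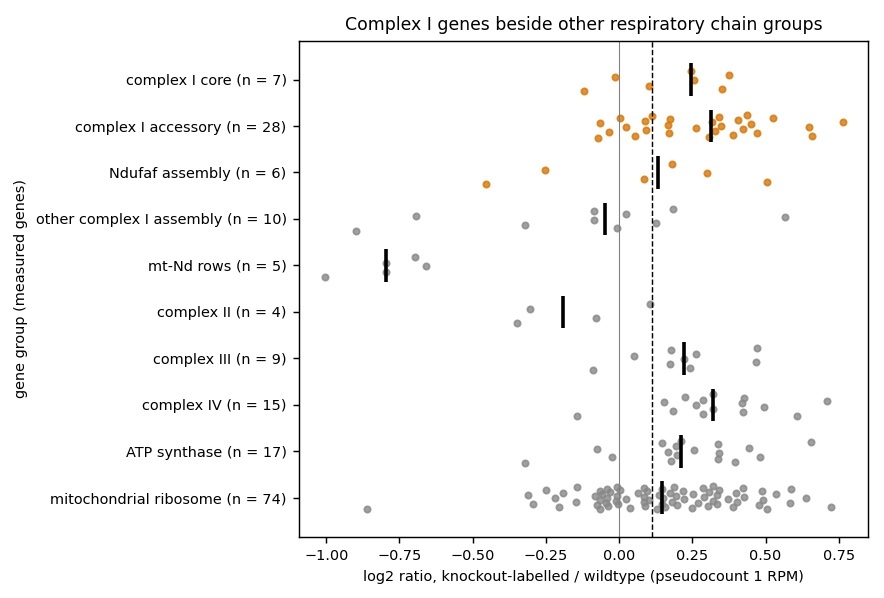
Log2 ratio, knockout-labelled over wildtype with a pseudocount of 1 RPM, of each measured gene (points) in nuclear complex I groups (orange) and other groups (grey); black bars are medians and the dashed line is the median of all measured genes. Core and accessory subunits lie in the range of complexes III and IV and of the ATP synthase, complex II lies below them, and the mt-Nd rows lie apart at −1.004 to −0.66.

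Beside the other nuclear respiratory chain genes, complex I subunits had a median close to that of complexes III and IV and the ATP synthase. The median log2 ratio was 0.26 over 35 measured complex I subunits, 0.22 over 9 genes of complex III, 0.32 over 15 of complex IV and 0.21 over 17 rows whose symbols begin with Atp5, Atp5sl included. Complex II, which also delivers electrons to ubiquinone and has no mitochondrially encoded subunit, had a median of −0.19 over 4 genes, with 3 intervals below 1 and 1 above. Sdhc was at 407 against 320 RPM and Sdhd at 290 against 235 RPM. Mitochondrial ribosomal proteins had a median of 0.15 over 74 genes. The median longest coding transcript was 2065.5 bases for complex II. It was 983 for complex I subunits, 1363 for complex III, 680 for complex IV and 955 for the Atp5 rows. These group medians of the ratio were not corrected for length or GC content, and the part of either in the place of complex II was not tested. With 1 library per group none of these differences has a test.

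Transcript length and GC content both moved with the ratios, with Spearman correlations of −0.18 and 0.19 over 9502 measured genes. Among all measured genes, those with a longest coding transcript of up to 1000 bases had a median log2 ratio of 0.29 over 443 genes, and the medians of the next classes were 0.22 for over 1000 and up to 2000 bases, 0.11 for over 2000 and up to 4000 bases and 0.04 for longer ones. The measured members are short, with a median of 1005 bases beside 3293 bases over all measured genes. The 21 members of up to 1000 bases had a median of 0.18, below that of all genes of their class, and the 16 members in the class up to 2000 bases had a median of 0.28. After a correction of all log2 ratios for length and GC content, the median of the members was 0.05 beside 0.12 over all genes with a length, so the members no longer lay above the median of all genes. The parts of length and of GC content in this change were not separated. Core and accessory medians were then 0.05 and 0.13, and the part of either property in the difference between these groups was not tested further. Across the 43 members, Spearman's correlation of log2 ratio with length was −0.11, and with wildtype RPM it was 0.27; the members share both libraries, so these values are descriptions.

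**Figure D4:**
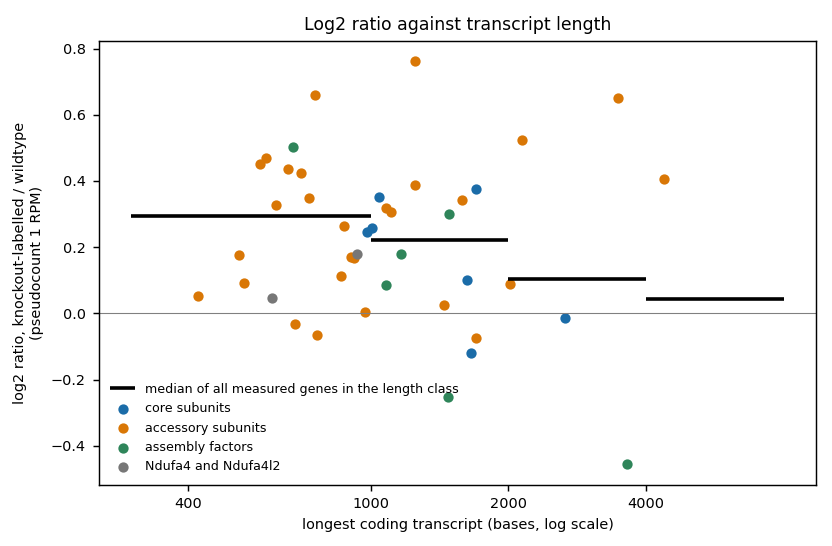
Log2 ratio of each measured member (points, by role) against the length of its longest coding transcript in bases on a log axis; black bars are the medians of all measured genes in 4 length classes, the outer 2 of which have no outer limit. The class medians step down from 0.29 to 0.04, and the members scatter around them.

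The promoters of many respiratory chain genes carry sites of the nuclear respiratory factor NRF1. In the RefSeq promoter table of GRCm38.p6, which gives 250 bases before to 50 bases after each gene start, 38 of the 44 members had an entry. The NRF1 consensus, matches of which are in capitals below, was searched on both strands and occurred in 9 of these 38 (23.7%), beside 5.19% of all 27025 genes in the table and 12.1% of the 7112 measured genes with an entry. The YY1 letters AANATGGCG occurred in 7 members (18.4%) beside 6.61% of measured genes, the estrogen-related receptor letters AAGGTCA in 3 (7.89%) beside 3.68%, and the ETS letters CCGGAAG in 5 (13.2%) beside 20.7%. Matches of different motifs overlapped in 0 cases. The 8 measured members with the NRF1 consensus had a median log2 ratio of 0.17, and the 29 with an entry but without it 0.30. Of the 9, windows are shown for a member with one of the highest ratios (Ndufs6), the one with the lowest (Ndufaf4) and one between them (Ndufa11), which had a ratio of 1.12 (1.06 to 1.19). Their matches begin 16, 113 and 60 bases before the gene start, and are shown 5′ to 3′ on the gene's strand with the motif in capitals. The windows are chr13:73328483-73328523 on the minus strand, chr4:24897945-24898004 on the plus strand and chr17:56717677-56717736 on the plus strand.
Ndufs6: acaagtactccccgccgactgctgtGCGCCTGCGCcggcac
Ndufaf4: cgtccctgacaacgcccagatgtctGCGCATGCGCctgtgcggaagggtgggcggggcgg
Ndufa11: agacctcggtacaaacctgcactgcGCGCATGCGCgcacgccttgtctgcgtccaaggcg
A match of letters is a description of the sequence and does not show binding.

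Of the related rows, Ndufa4 stood close to a ratio of 1. Ndufa4, the complex IV subunit, was at 1513 RPM in the wildtype and 1561 RPM in the knockout-labelled library, a ratio of 1.03 (1.01 to 1.06) that turned to 0.952 after division by the median ratio. Ndufa4l2, its paralog that is induced by low oxygen, was at 14.4 against 16.4 RPM, a ratio of 1.14 with an interval of 0.890 to 1.46. An annotated gene overlaps Ndufa4l2 on the opposite strand.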

How the data were processed

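The authors deposited 1 table for both libraries, with read counts per gene and RPM. Per the submitters' processing notes STAR, mm10 and GRCm38 were used; for counting, neither the tool and annotation nor the use of strand and of reads with several matches is given in the sources used here. The deposited RPM equal the count divided by the column total times 1000000 within 5e-05. The authors' fold ratio and the authors' p-value are in the deposited table and were not used. Starts count from 0 in the file and are printed plus 1.

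The members and lists were chosen with earlier results of these data known. Named were the core and Ndufaf genes (1 member enters counts and medians but is not reported here by itself), the 6 highest and 6 lowest and the 3 most abundant accessory genes, members past 1.5-fold, unmeasured and related rows and fixed lists of other genes. Ndufb9, Ndufa11, Sdhc and Sdhd were named after their values were seen. Log2 ratios use a pseudocount of 1 RPM, which understates differences of low genes; ratios have none. No molecular identifiers are stated, so reads are not independent molecules. Transcripts of GENCODE M21 (GRCm38) gave lengths for all 44 members and 9502 of 10209 measured genes; copies were found with BLAST 2.17.0. Alternatives covered pseudocounts, minimums, folds, 3 rescalings, a quadratic correction for length and GC content, and leaving out uncertain members. Python 3.11.15, numpy 2.4.6, pandas 2.3.3, scipy 1.17.1 and matplotlib 3.10.9 were used, and the intervals and the 2-fold rule were tested on simulated data. The simulation drew counts with counting error alone and planted changes past 2-fold, so it could not test spread between animals or smaller differences.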

Additional observations from a re-analysis of the deposited data

How the results depend on the processing

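With 1 library per group, leaving out a replicate was not possible. No paired analysis was possible because each group has 1 library. Pseudocounts of 0.1 and 5 RPM and minimums of 1 RPM, 20 RPM or 1 read gave medians of 0.21 to 0.28 for all members and 0.08 to 0.30 for assembly factors. Division by the median ratio or by a trimmed mean of log ratios gave medians of 0.13 and 0.13 for all members, 0.13 and 0.13 for core and 0.20 and 0.19 for accessory subunits. Totals that leave out mitochondrial and the 10 most abundant other transcripts gave 0.063, 0.063 and 0.13, and −0.024 for assembly factors, which reversed. Correction for length and GC content gave 0.048, 0.048 and 0.13. The core median was 0.17 without uncertain members, and the core mean was 0.17. The 3 scales shift the median of all measured genes from 0.11 to 0.00, 0.00 and −0.06, and leave 22, 22 and 19 of 43 members with an interval above 1 and 10, 10 and 14 below. On these scales 27, 27 and 24 members had a log2 ratio above 0, from 36. The whole interval went from above to below 1 for Ndufa1 (0.957, 0.955 and 0.913) and Ndufa4 (0.952, 0.950 and 0.908), and on the last scale also, among others, for Ndufa10 (0.937), Ndufa7 (0.938) and Ndufa8 (0.952). The count of 0 members at least 2-fold higher became 3 at 1.5-fold; it was 0, as was the count lower, in the other settings run. Of reads without mitochondrial transcripts the members took 2.76% and 2.94% (ratio 1.07), and without the 10 most abundant genes too 3.11% and 3.33% (ratio 1.07). The all-gene counts past 2-fold, 342 higher and 242 lower, were 194 and 75 with a pseudocount of 5 RPM, 457 and 397 with a minimum of 1 RPM, 220 and 92 with 20 RPM, and 252 and 311, 251 and 315, and 223 and 362 on the 3 scales. Ratios of genes with few reads, Ndufs5, Ndufb4, Ndufaf5 and Ndufaf6, are limited by depth.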
